A study of Homo sapiens with 12 samples.

Results

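The genes described here are a list of 48 glycolysis and hypoxia response genes. They are the enzymes that turn glucose into lactate, the enzymes of glycogen, the HIF subunits with their oxygen sensors, and genes grouped as hypoxia targets. For each gene the probe set with the highest mean over all arrays was used, among probe sets that name a single gene and are no array controls. This gave 47 measured genes of the 11963 genes on the array. CA9, a carbonic anhydrase of the cell surface, was named by no probe set used here and is not analysed. According to the labels, the RNA was that of MDA-MB-231, a human breast cancer cell line that lacks hormone receptors. Stable transfection gave 4 groups of 3 biological replicates: scramble shRNA, LSD2 shRNA, eGFP/Flag vector (the control without LSD2) and LSD2/eGFP/Flag vector. All 4 groups, controls included, were grown with 800 ug/ml G-418, which kills cells that did not take up the construct. The arrays address which genes differ when LSD2, a histone H3 demethylase encoded by KDM1B, is lowered or raised. The labels do not say whether a group was a clone or a pool, nor which promoter drove LSD2, so p-values measure the spread between replicates that may share a single line.

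Glycolysis splits glucose in the cytosol, yields ATP without oxygen, and ends in pyruvate, which lactate dehydrogenase turns into lactate or the mitochondrion oxidises. The transcription factor HIF is a dimer of an unstable alpha subunit (HIF1A or EPAS1) and a stable beta subunit (ARNT). With oxygen, the prolyl hydroxylases EGLN1 and EGLN3 mark the alpha subunit and VHL sends it to the proteasome, whereas without oxygen HIF binds short hypoxia response elements and raises glycolytic enzymes, angiogenic factors and mitophagy genes. Many breast cancer cells run glycolysis strongly even with oxygen present, and the labels name ordinary culture and no hypoxia.

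Values are deposited log2 signals, so a difference of 1 is a doubling. The shRNA arrays had medians of 6.65 to 6.71 and the vector arrays of 7.03 to 7.18, which points to separate normalization, and levels were therefore compared only within the shRNA arrays or within the vector arrays. The number of arrays limits the precision. KDM1B itself had 0 usable probe sets, which leaves the knockdown and overexpression unchecked. Arrays with the label LSD2/eGFP/Flag stood apart from the rest. Their correlation over genes was 0.904 to 0.908 with the eGFP/Flag arrays, against 0.996 to 0.998 within each group and 0.991 to 0.994 between scramble and LSD2 shRNA, as a description, since genes are not replicates. Of 14 genes listed as high in MDA-MB-231, 13 were measured, and 12 of them fell in the LSD2/eGFP/Flag arrays. CD44, a surface receptor for hyaluronan, went from 12.41 ± 0.20 to 3.99 ± 0.07 (SD, n = 3), and ANXA1 from 13.25 ± 0.13 to 4.65 ± 0.06. S100A4 was the measured marker that did not pass. The summed log2 level of the 13 markers was 156.2 to 156.8 in the eGFP/Flag arrays and 89.6 to 93.0 in the LSD2/eGFP/Flag arrays. The same sum was 148.3 to 150.0 in the scramble and 149.5 to 150.6 in the LSD2 shRNA arrays. Among 10 luminal genes 2 rose and 4 fell in the vector comparison, among 8 fibroblast and endothelial genes 2 rose and 1 fell, and none of 6 blood cell genes was called. In the shRNA comparison these counts were 2 and 0 of the luminal, 1 and 0 of the fibroblast and endothelial, and 1 and 1 of the blood cell genes. Over all genes 57.0% were called in the vector and 10.5% in the shRNA comparison. Every vector difference given here moves with this loss of line markers, and its part in them was not tested. Whether the cells of the LSD2/eGFP/Flag arrays were those that the labels name was not tested either. From bulk RNA, fewer cells of a kind and less RNA per cell cannot be told apart.

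The members called in both comparisons were ADM, EPAS1, VEGFB, ERO1A and MXI1. Their promoter windows are shown because the hypoxia response core is the sequence through which HIF acts on its targets. Each window runs from 250 bases before to 50 bases after the RefSeq start site in GRCh38.p14, written 5′ to 3′ on the strand of the gene, with the core (ACGTG or GCGTG, on either strand) in capitals. ADM lies at chr11:10304823-10305122 (+), EPAS1 at chr2:46297157-46297456 (+), VEGFB at chr11:64234334-64234633 (+), ERO1A at chr14:52695509-52695808 (-) and MXI1 at chr10:110207355-110207654 (+).
ADM: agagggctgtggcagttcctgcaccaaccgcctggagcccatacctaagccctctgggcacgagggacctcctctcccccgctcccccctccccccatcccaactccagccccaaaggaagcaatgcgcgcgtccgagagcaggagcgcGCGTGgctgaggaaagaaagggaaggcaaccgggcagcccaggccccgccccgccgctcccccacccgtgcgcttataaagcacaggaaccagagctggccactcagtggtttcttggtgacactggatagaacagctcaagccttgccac
EPAS1: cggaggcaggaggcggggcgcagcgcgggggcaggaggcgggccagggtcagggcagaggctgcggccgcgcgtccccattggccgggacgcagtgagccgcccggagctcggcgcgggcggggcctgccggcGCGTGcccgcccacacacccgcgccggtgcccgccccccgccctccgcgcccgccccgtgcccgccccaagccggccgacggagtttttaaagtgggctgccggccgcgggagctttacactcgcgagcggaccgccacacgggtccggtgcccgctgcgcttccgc
VEGFB: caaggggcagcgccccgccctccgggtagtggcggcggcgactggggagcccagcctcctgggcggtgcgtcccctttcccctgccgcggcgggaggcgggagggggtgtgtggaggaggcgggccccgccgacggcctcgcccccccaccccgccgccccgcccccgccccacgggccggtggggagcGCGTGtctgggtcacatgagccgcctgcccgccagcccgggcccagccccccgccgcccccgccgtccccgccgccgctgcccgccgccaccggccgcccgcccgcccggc
ERO1A: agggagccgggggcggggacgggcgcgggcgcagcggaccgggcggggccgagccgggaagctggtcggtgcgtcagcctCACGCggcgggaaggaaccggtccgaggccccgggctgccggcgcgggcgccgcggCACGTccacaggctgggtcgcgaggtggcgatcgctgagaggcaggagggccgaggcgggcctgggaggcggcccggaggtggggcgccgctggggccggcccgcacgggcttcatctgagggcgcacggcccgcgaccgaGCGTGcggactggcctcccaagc
MXI1: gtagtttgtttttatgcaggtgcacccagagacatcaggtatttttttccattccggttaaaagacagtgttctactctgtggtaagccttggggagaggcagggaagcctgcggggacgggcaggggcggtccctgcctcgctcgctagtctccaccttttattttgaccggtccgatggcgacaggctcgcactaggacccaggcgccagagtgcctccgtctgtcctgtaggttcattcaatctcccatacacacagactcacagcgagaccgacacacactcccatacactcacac

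ADM held the core at -101 from the start site, EPAS1 at -117 and VEGFB at -61, while ERO1A held it at -170, -114 and 27, counting the start base as 0 and giving the first base of the core as printed. The MXI1 window held none, which says only that these letters are not in that window. RefSeq windows were matched for 42 of the 47 measured members, and STC1, BNIP3L, NDRG1, VHL and VEGFA had no entry. The core was in 31 of the 42 windows (73.8%), against 58.7% of 9563 windows of all tested genes and 48.4% of 35116 windows in the table. The form ACGTG alone was in 40.5% of the member windows and 24.8% of those of tested genes. The E-box CACGTG, which contains ACGTG and is read by MYC and MXI1 among others, was in 11.9% and 9.51%. By call in the vector comparison, the core was in 10 of 14 windows of members that rose, 11 of 14 of those that fell, and 10 of 14 of those not called. In the shRNA comparison it was in 2 of 3 windows of members that rose, 4 of 4 of those that fell and 25 of 35 of those not called. BNIP3, a mitophagy receptor, had 6 hits of the core from -143 to -104, counting both strands. LDHA, the lactate dehydrogenase of muscle type, had 6 from -185 to 38. Some of these hits overlap, because CACGTG holds the core on each strand and counts at adjacent bases. Such hits were at -134 and -133 in BNIP3, and at -185 and -184 and at -87 and -86 in LDHA, so separate places are fewer.

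With the LSD2 shRNA, 40 of the 47 genes did not pass the test. HK2, ERO1A and MXI1 rose and PFKFB3, EPAS1, ADM and VEGFB fell, with ADM, a secreted vasodilator peptide, 2.11-fold lower and the other 6 changed by less than 1.5-fold. That makes 7 of 47 members called (limma, Benjamini-Hochberg adjusted p under 0.05), 14.9% against 10.5% of all genes. Of all genes 5.0% were called higher and 5.53% lower, beside 3 and 4 members. The 3 arrays of each group did not overlap for 16 members (34.0%), against 28.3% of all genes. The median difference of the members was -0.05 and their median absolute difference 0.17, against -0.01 and 0.10 over all genes. The share called is close to that of the array as a whole. With 1 array omitted, 2 to 9 members passed, the fewest being 2 without scramble replicate 1, 3 without LSD2 shRNA replicate 3, and 4 when LSD2 shRNA replicate 1 or either of replicates 2 and 3 of scramble was left out. Under equal medians 7 members were again called, 4 higher and 3 lower, with PFKFB3 lost and HIF1A gained as higher. The split of all genes was then 703 higher and 526 lower in place of 598 and 662.

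With the LSD2/eGFP/Flag vector the members differed more, and in both directions. ADM, STC2, ARNT and DDIT4 rose by over 1 log2 unit, and STC1, VEGFC, ERO1A, PFKP, ENO2, GBE1, CA12, ANGPTL4 and HIF1A fell by as much or more. Of the 47 members 31 were called (66.0%, against 57.0% of all genes), 14 higher and 17 lower, against 30.9% higher and 26.1% lower over all genes. The arrays of the groups did not overlap for 35 members (74.5%), against 61.1% of all genes. The median difference was -0.04 and the median absolute difference 0.51, against 0.01 and 0.31 over all genes. A shift of every array to the same median lowers every vector difference by about 0.14, and it turned the split of all called genes from 54.2% to 40.5% higher. It raised the members called from 31 to 34, with ENO1, LDHA, PFKFB3 and TFRC gained as lower and PYGL lost, and turned the sign of no called member.

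The effect in the vector arrays minus that in the shRNA arrays was called for 27 members (57.4%), 12 higher and 15 lower, against 50.4% of all genes, of which 28.0% were higher and 22.4% lower. The groups of these comparisons share no arrays, but all 12 arrays entered 1 fit with 1 estimate of the spread per gene. Their calls are therefore not independent. ADM, EPAS1 and VEGFB were lower with the shRNA and higher with the vector, and ERO1A was higher and then lower. For these 4 genes the difference of effects passed as well, which follows almost of itself from called effects of opposite sign and adds no support. MXI1 was higher in both. On the probe sets used, no member was called lower in both. CA12 was called lower in both on other probe sets, such as 203963_at (-0.65 and -1.45). PFKP was called lower with the vector and narrowly missed the threshold as lower with the shRNA. On the probe sets used, 14 were called in neither: GPI, ALDOC, TPI1, PGK1, PGAM1, ENO1, LDHA, LDHB, PDK1, PFKFB4, PGM1, VHL, VEGFA and TFRC.

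**Figure D1:**
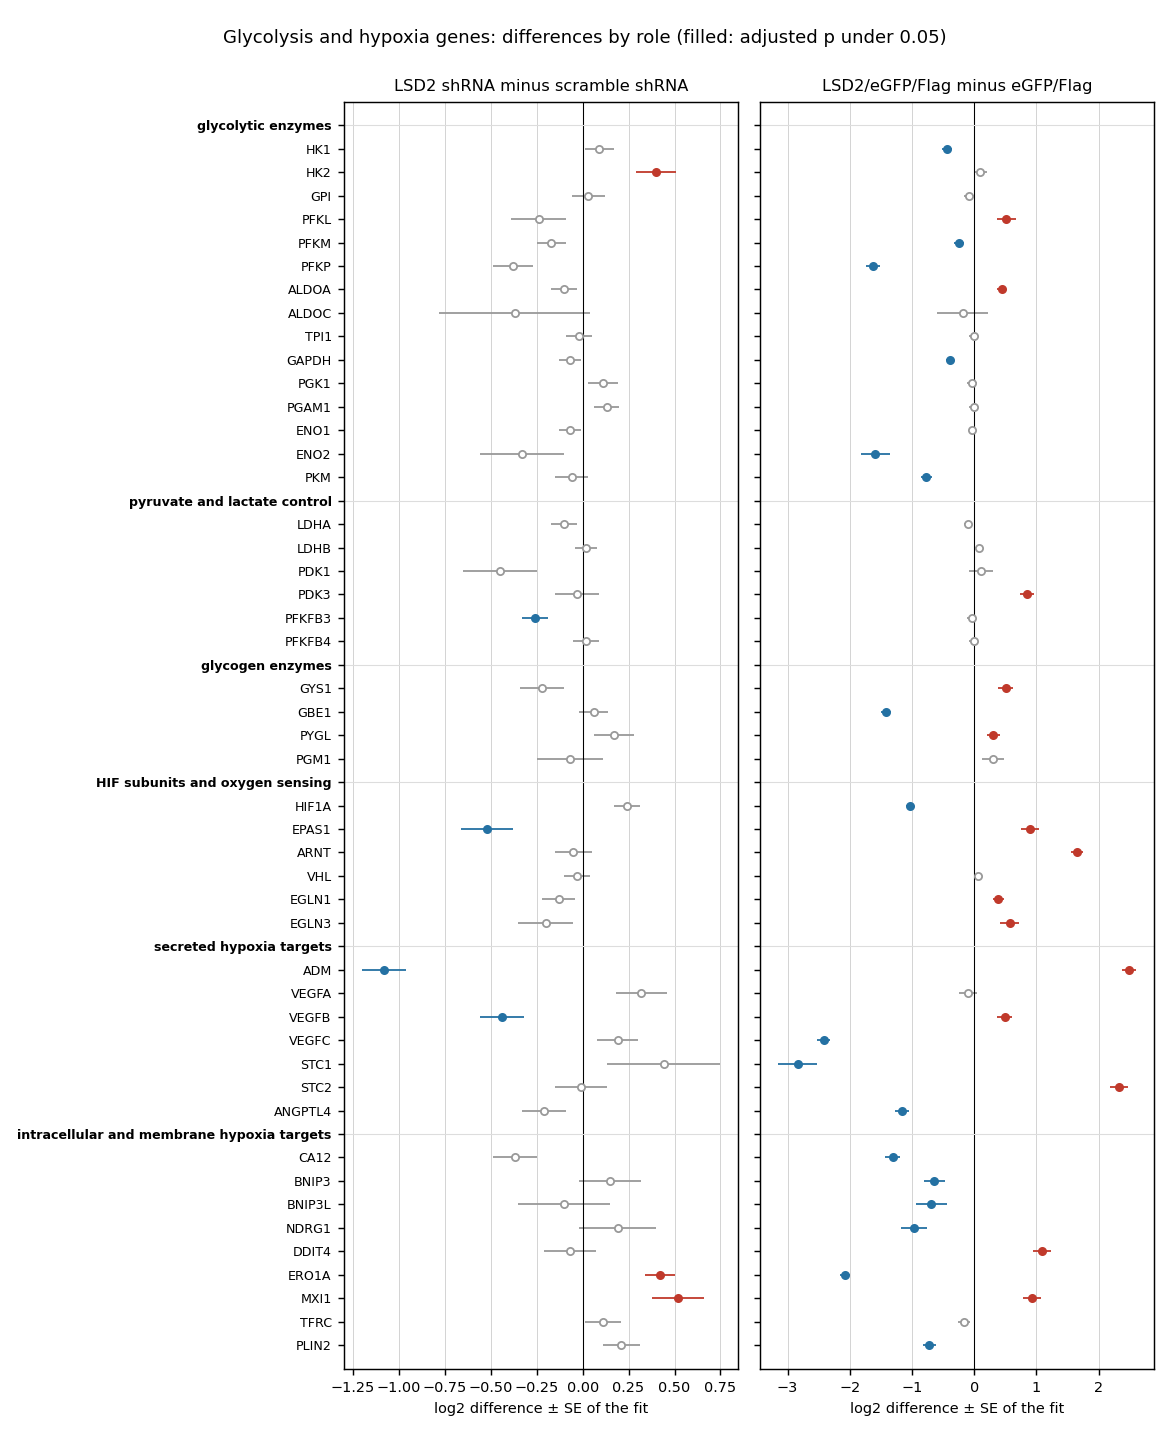
Log2 differences of the 47 measured members, grouped by role, for LSD2 shRNA minus scramble shRNA and for LSD2/eGFP/Flag minus eGFP/Flag vector. Points are differences from the fit, bars are their standard errors, and filled points have an adjusted p under 0.05. In the shRNA comparison the members lie between -1.08 and 0.52, and in the vector comparison between -2.84 and 2.49.

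Among the HIF subunits, HIF1A, the alpha subunit present in most cell types, was at 11.98, 12.10 and 12.08 in the scramble arrays and at 12.37, 12.30 and 12.20 in the LSD2 shRNA arrays. The groups did not overlap, and the difference of 0.24 ± 0.07 missed the threshold (adjusted p = 0.0508). It passed in 7 of 22 alternative settings (adjusted p 0.00357 to 0.196), among them those without LSD2 shRNA replicate 3 (0.0438) and without eGFP/Flag replicate 3 (0.0407). With the vectors HIF1A was at 13.52, 13.47 and 13.36 in the eGFP/Flag and 12.41, 12.44 and 12.40 in the LSD2/eGFP/Flag arrays. All 3 LSD2/eGFP/Flag arrays were lower, by 1.03 ± 0.07 (adjusted p = 2.53e-08).

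EPAS1, the HIF-2 alpha subunit (probe set 200878_at), fell with the shRNA and rose with the vector. It was at 9.54, 9.88 and 9.28 in the scramble arrays and at 9.05, 9.20 and 8.88 in the LSD2 shRNA arrays, with no overlap. The difference was -0.52 ± 0.14 (adjusted p = 0.0312), or 1.44-fold. Over 22 alternatives its adjusted p ran from 0.00748 to 0.126. The call was lost without scramble replicate 1 (0.0851), scramble replicate 2 (0.126), LSD2 shRNA replicate 1 (0.0922) or LSD2 shRNA replicate 3 (0.12), with the 6 shRNA arrays alone (0.0751), and with the mean of its probe sets (-0.36, 0.0612). EPAS1 was at 9.22, 8.96 and 9.23 in the eGFP/Flag arrays and at 10.08, 9.88 and 10.17 in the LSD2/eGFP/Flag arrays. The latter were all higher, by 0.90 ± 0.14 (adjusted p = 7.99e-05). The difference between the effects was 1.43 ± 0.20 (adjusted p = 4.2e-05).

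ARNT, the beta subunit that both alpha subunits need, was at 7.72, 7.65 and 7.61 with scramble and at 7.65, 7.65 and 7.53 with the LSD2 shRNA, and these groups overlapped. Its values were 8.0, 7.76 and 7.54 with eGFP/Flag and 9.49, 9.38 and 9.40 with LSD2/eGFP/Flag. Every LSD2/eGFP/Flag array was higher, by 1.65 ± 0.10 or 3.15-fold (adjusted p = 6.78e-09). The size rests on this probe set, as the mean of the ARNT probe sets gave 0.70 (adjusted p = 8.62e-07) and the other probe sets 0.35 and 0.09.

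Both hydroxylases also rose with the vector. EGLN1, the main prolyl hydroxylase of HIF, was at 8.46, 8.43 and 8.24 with eGFP/Flag and at 8.73, 8.76 and 8.81 with LSD2/eGFP/Flag, a rise of 0.39 ± 0.09 (adjusted p = 0.00162) without overlap. EGLN3, a hydroxylase that is itself induced by hypoxia, was at 7.07, 6.93 and 6.80 and then at 7.63, 7.54 and 7.33, a rise of 0.57 ± 0.15 (adjusted p = 0.00416), again without overlap. In the shRNA arrays both overlapped between the groups. EGLN1 was at 7.68, 7.94 and 7.75 with scramble and 7.77, 7.62 and 7.60 with the LSD2 shRNA, and EGLN3 at 5.67, 5.93 and 5.27 and then 5.43, 5.57 and 5.26. VHL, which recognises hydroxylated HIF, had values close to the lowest of each array, 2.70, 2.78 and 2.75 with scramble, 2.70, 2.74 and 2.70 with the LSD2 shRNA, 3.40, 3.51 and 3.56 with eGFP/Flag and 3.61, 3.5 and 3.55 with LSD2/eGFP/Flag. These groups overlapped, and values this low carry no order.

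**Figure D2:**
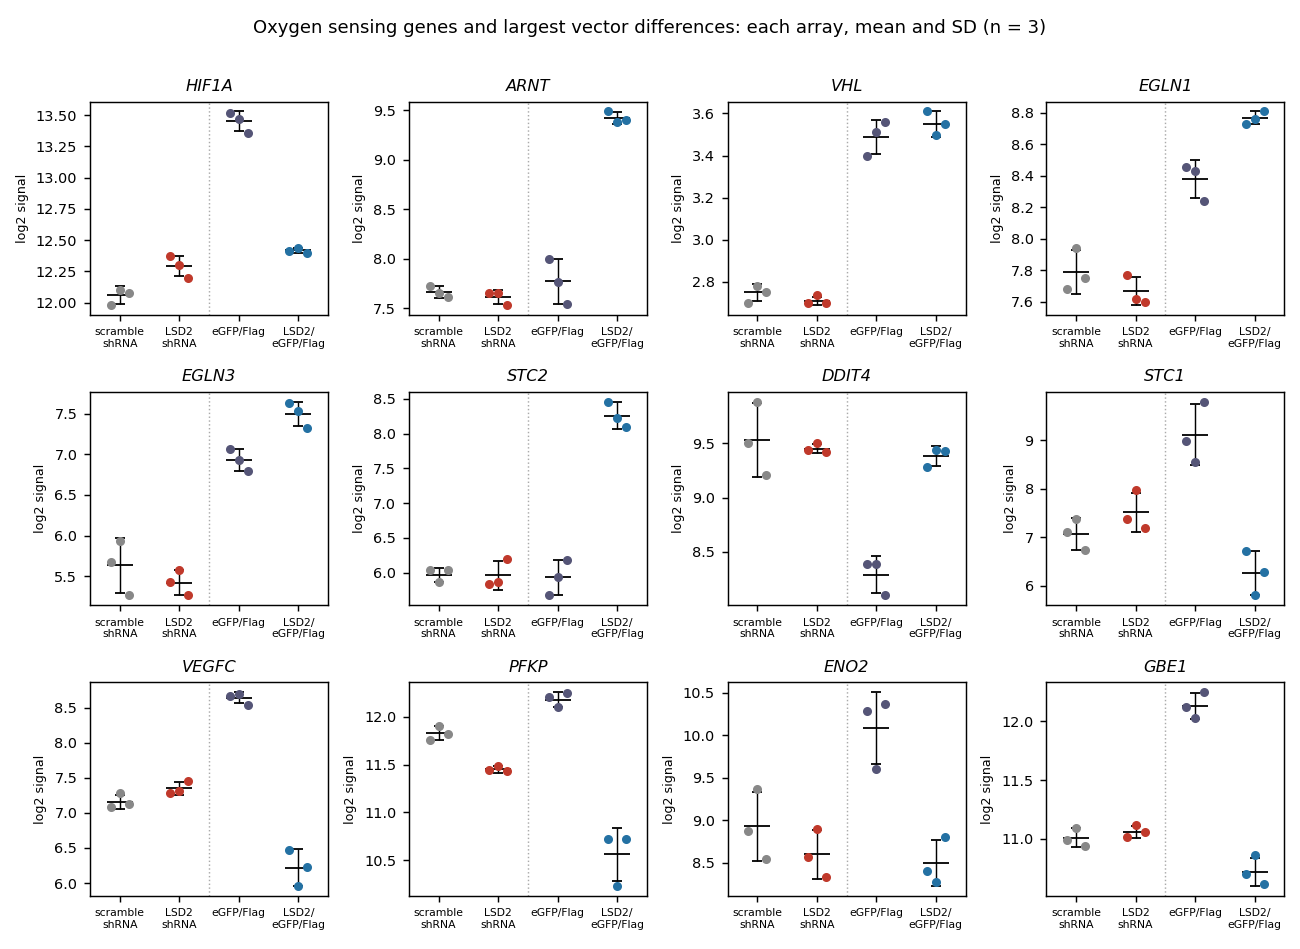
Log2 signal of the oxygen sensing genes HIF1A, ARNT, VHL, EGLN1 and EGLN3 and of the members with the largest vector differences that were not called in the shRNA comparison. Each point is an array, bars are mean and SD (n = 3), and a dotted line separates shRNA from vector arrays, whose levels are not comparable. STC2 and ARNT stand higher in all 3 LSD2/eGFP/Flag arrays than in eGFP/Flag, and STC1, VEGFC, PFKP, ENO2 and GBE1 stand lower.

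Of the 15 glycolytic enzymes 1 rose and none fell with the LSD2 shRNA (6.67% called, against 10.5% of all genes). HK2, the inducible hexokinase that traps glucose in the cell (probe set 202934_at), was at 8.90, 9.23 and 9.06 with scramble and at 9.35, 9.59 and 9.46 with the LSD2 shRNA. Every LSD2 shRNA array was higher, by 0.40 ± 0.11 or 1.32-fold (adjusted p = 0.0289). Its adjusted p ran from 0.00196 to 0.189 over 22 alternatives, and the call was lost without scramble replicate 1 (0.135), scramble replicate 3 (0.071), LSD2 shRNA replicate 2 (0.104) or LSD2 shRNA replicate 3 (0.0731), and with the mean of its probe sets (0.18, 0.189). In the vector arrays HK2 was at 11.05, 11.01 and 11.34 and then at 11.27, 11.29 and 11.13, which overlap (adjusted p = 0.475). The difference between its effects, -0.31 ± 0.15, did not pass (adjusted p = 0.116). It passed as lower under equal medians (-0.48, 0.0114), with array weights (-0.39, 0.0456) and without scramble replicate 2 (-0.39, 0.0485). It passed as higher with the mean of the HK2 probe sets (0.34, 0.0211) and on probe set 222305_at (0.99, 1.58e-05), so its direction was not settled. With that mean the vector difference also passed (0.53, adjusted p = 6.34e-05).

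With the vectors 2 of the 15 enzymes rose and 6 fell (53.3% called, against 57.0% of all genes). The largest fall was that of PFKP, the platelet isoform of phosphofructokinase, which commits sugar to glycolysis. It was at 12.21, 12.10 and 12.25 with eGFP/Flag and at 10.72, 10.23 and 10.72 with LSD2/eGFP/Flag, so no array overlapped, and the difference was -1.63 ± 0.11 or 3.09-fold (adjusted p = 2.8e-08). The shRNA arrays gave 11.76, 11.91 and 11.82 against 11.44, 11.49 and 11.43, a difference of -0.38 ± 0.11 without overlap that missed the threshold (adjusted p = 0.051). It passed in 10 of 22 alternatives, including the fit on the 6 shRNA arrays alone (adjusted p = 0.0123, range 0.00449 to 0.163) and the omission of LSD2/eGFP/Flag replicate 1 (0.0469), 2 (0.00449) or 3 (0.0471). PFKL, the liver isoform, rose by 0.52 ± 0.15 with the vector (adjusted p = 0.00727), and PFKM, the muscle isoform, fell by 0.25 ± 0.08 (adjusted p = 0.0123). Leaving out replicate 3 of eGFP/Flag (0.0528) or replicate 2 of LSD2/eGFP/Flag (0.0568) ended the PFKM call, as did quantile normalization (-0.20, 0.0515) or cyclic loess (-0.18, 0.0598) of all arrays, within a range of 0.000439 to 0.0598.

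ENO2, the neuronal enolase, was at 10.29, 9.61 and 10.37 with eGFP/Flag and at 8.41, 8.27 and 8.80 with LSD2/eGFP/Flag. The groups did not overlap despite a wide spread, and the difference was -1.59 ± 0.23 or 3.02-fold (adjusted p = 4.85e-05). ENO1, the enolase of most tissues, was at 13.98, 13.92 and 13.92 and then at 13.90, 13.92 and 13.92, a difference of -0.03 ± 0.06 (adjusted p = 0.697). PKM, the pyruvate kinase of the last step, fell by 0.77 ± 0.09 (adjusted p = 8.66e-06), HK1, the constitutive hexokinase, fell by 0.44 ± 0.08 (adjusted p = 0.000342), and GAPDH fell by 0.39 ± 0.06 (adjusted p = 0.000128). ALDOA, the muscle-type aldolase, rose by 0.44 ± 0.07 (adjusted p = 0.000141).

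The remaining enzymes did not pass in either comparison. TPI1, the triose isomerase, differed by -0.02 ± 0.07 and -0.01 ± 0.07 in the shRNA and vector comparisons. PGK1, which makes ATP in the lower part of the pathway, differed by 0.11 ± 0.08 and -0.04 ± 0.08. PGAM1, the phosphoglycerate mutase, differed by 0.13 ± 0.07 and -0.01 ± 0.07. GPI, the isomerase after hexokinase, differed by 0.03 ± 0.09 and -0.08 ± 0.09. ALDOC, the brain-type aldolase, had differences of -0.37 ± 0.41 and -0.18 ± 0.41, whose errors were the widest of all members. GAPDH, often taken as a constant reference, thus fell with the vector while TPI1, PGK1 and PGAM1, near it in the pathway, did not pass. ALDOA, also near it, rose.

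Of the 6 genes grouped as pyruvate and lactate control, 1 was called in each comparison (16.7%, against 10.5% of all genes with the shRNA and 57.0% with the vector). The group includes PFKFB3 and PFKFB4, which act on the phosphofructokinase step and not on pyruvate or lactate. The shRNA call was that of PFKFB3. PFKFB3, which makes the activator of phosphofructokinase, was at 9.43, 9.43 and 9.45 with scramble and at 9.23, 9.23 and 9.09 with the LSD2 shRNA. The groups lay apart with a narrow spread, and the difference was -0.26 ± 0.07 or 1.20-fold (adjusted p = 0.0242). The call was lost without scramble replicate 1 (0.0756), 2 (0.067) or 3 (0.0681), without LSD2 shRNA replicate 3 (0.0934), and with arrays shifted to equal medians (-0.22, 0.0637), within a range of 0.00635 to 0.0934. With the vectors PFKFB3 was at 11.01, 10.89 and 10.99 and then at 10.98, 10.87 and 10.92, which overlap (adjusted p = 0.667), and the difference between its effects was 0.22 ± 0.09 (adjusted p = 0.0671). PDK3, a kinase that shuts off pyruvate dehydrogenase, rose with the vector by 0.85 ± 0.12 (adjusted p = 2.46e-05), from 7.79, 7.41 and 7.90 to 8.48, 8.58 and 8.58. PDK1, the kinase that HIF1A induces, did not pass (0.11 ± 0.20 with the vector, -0.45 ± 0.20 with the shRNA). LDHA differed by -0.10 ± 0.07 in both comparisons and LDHB, the heart-type lactate dehydrogenase, by 0.02 ± 0.06 and 0.07 ± 0.06. PFKFB4, a paralog of PFKFB3, differed by 0.02 ± 0.07 and -0.01 ± 0.07.

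Of the 4 glycogen enzymes none was called with the shRNA, where 10.5% of all genes were, and 2 rose and 1 fell with the vector, where 57.0% of all genes were called. GBE1, which adds the branches of glycogen, was at 12.12, 12.03 and 12.25 with eGFP/Flag and at 10.70, 10.86 and 10.62 with LSD2/eGFP/Flag. The arrays lay well apart, with a difference of -1.41 ± 0.08 or 2.66-fold (adjusted p = 5.09e-09). GYS1, the muscle glycogen synthase, rose by 0.51 ± 0.12 (adjusted p = 0.00193). PYGL, the liver phosphorylase that breaks glycogen down, rose by 0.31 ± 0.11 (adjusted p = 0.0256). The PYGL call was lost without eGFP/Flag replicate 1 (0.0861) or 2 (0.0832), without LSD2/eGFP/Flag replicate 1 (0.0953) or 3 (0.0756), and under equal medians (0.17, 0.135), within a range of 0.00842 to 0.135. PGM1, which links glycogen to glycolysis, differed by 0.30 ± 0.18 (adjusted p = 0.183), although its vector arrays did not overlap.

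The secreted genes of the list held its largest differences. They are grouped as hypoxia targets, and whether each responds to hypoxia in these cells was not tested. ADM, or adrenomedullin (probe set 202912_at), was at 10.31, 10.60 and 10.62 with scramble and at 9.39, 9.38 and 9.53 with the LSD2 shRNA. Every LSD2 shRNA array lay below every scramble array, and the difference was -1.08 ± 0.12 (adjusted p = 0.000151). In the vector arrays ADM was at 7.13, 7.45 and 7.40 and then at 10.05, 9.77 and 9.62, a rise of 2.49 ± 0.12 or 5.62-fold (adjusted p = 7.59e-10). The difference between the effects was 3.57 ± 0.17 (adjusted p = 1.28e-09). ADM kept its call in all 22 alternatives of each comparison, with a shRNA difference between -1.18 and -0.98 and an adjusted p of 5.07e-05 to 0.0015.

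VEGFB, a VEGF family ligand of VEGF receptor 1, was at 7.94, 7.99 and 7.78 with scramble and at 7.47, 7.66 and 7.25 with the LSD2 shRNA, with no overlap. The difference was -0.44 ± 0.12 or 1.36-fold (adjusted p = 0.0315). The call was lost without scramble replicate 1 (0.107), scramble replicate 2 (0.113), LSD2 shRNA replicate 1 (0.0922) or LSD2 shRNA replicate 3 (0.127), within a range of 0.00489 to 0.127. The vector arrays gave 6.97, 6.83 and 7.27 and then 7.51, 7.45 and 7.59, a rise of 0.49 ± 0.12 (adjusted p = 0.00293). The LSD2/eGFP/Flag arrays again lay above all eGFP/Flag arrays.

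VEGFC, the ligand that drives lymphatic vessel growth, was at 8.67, 8.70 and 8.54 with eGFP/Flag and at 6.47, 5.96 and 6.23 with LSD2/eGFP/Flag. No array overlapped, and the difference was -2.42 ± 0.11 or 5.34-fold (adjusted p = 4.61e-10). With the shRNA the difference was 0.19 ± 0.11 (adjusted p = 0.374). VEGFA, the main angiogenic factor and a classic HIF target, was at 10.33, 10.15 and 10.59 and then at 10.41, 9.96 and 10.39, and did not pass (-0.10 ± 0.14, adjusted p = 0.582). With the shRNA it was at 8.99, 9.01 and 8.63 and then at 9.15, 9.32 and 9.14, which did not overlap and did not pass (0.32 ± 0.14, adjusted p = 0.199).

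The stanniocalcins, secreted glycoproteins, moved in opposite directions with the vector. STC1 was at 8.98, 8.55 and 9.79 with eGFP/Flag and at 6.71, 5.80 and 6.29 with LSD2/eGFP/Flag, a difference of -2.84 ± 0.31 or 7.16-fold (adjusted p = 2.5e-06), the largest of any member on the probe sets used. STC2 was at 5.67, 5.94 and 6.18 and then at 8.46, 8.22 and 8.09, a rise of 2.33 ± 0.14 or 5.02-fold (adjusted p = 5.47e-09). Neither overlapped between the vector groups, and neither passed with the shRNA (0.44 ± 0.31 and -0.01 ± 0.14). ANGPTL4, an inhibitor of lipoprotein lipase, fell by 1.16 ± 0.12 with the vector (adjusted p = 1.91e-06).

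Among the intracellular and membrane targets, 2 of 9 rose with the shRNA, against 5.0% of all genes called higher. With the vector 2 rose and 6 fell, against 30.9% of all genes higher and 26.1% lower. ERO1A, the oxidase that forms disulfide bonds in the endoplasmic reticulum (probe set 218498_s_at), was at 9.39, 9.35 and 9.42 with scramble and at 9.79, 9.68 and 9.94 with the LSD2 shRNA. All LSD2 shRNA arrays were higher, by 0.42 ± 0.08 or 1.34-fold (adjusted p = 0.00362). The vector arrays gave 11.29, 11.24 and 11.22 and then 9.09, 9.20 and 9.24, a difference of -2.07 ± 0.08 or 4.20-fold (adjusted p = 4.12e-11). ERO1A kept its calls in all 22 alternatives of each comparison, with an adjusted p of 0.000703 to 0.0187 for the shRNA. Its difference of effects was -2.49 ± 0.11 (adjusted p = 4.16e-10), opposite in sign to that of ADM.

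MXI1, a MAX partner that opposes MYC, was at 9.04, 9.50 and 8.86 with scramble and at 9.58, 9.79 and 9.60 with the LSD2 shRNA. The lowest LSD2 shRNA array lay just above the highest scramble array, and the rise was 0.52 ± 0.14 or 1.43-fold (adjusted p = 0.0353). The call was lost with any LSD2 shRNA replicate left out (0.0764, 0.117 and 0.0708 without replicates 1, 2 and 3), without scramble replicate 1 (0.13) or 3 (0.129), and in the fit on the shRNA arrays alone (0.0822), within a range of 0.00279 to 0.13. With the vectors MXI1 was at 11.53, 11.43 and 11.74 and then at 12.60, 12.32 and 12.55, a rise of 0.93 ± 0.14 (adjusted p = 7.98e-05) without overlap. The difference between the effects was 0.40 ± 0.20 (adjusted p = 0.12).

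DDIT4, or REDD1, an inhibitor of mTORC1, was at 8.39, 8.39 and 8.10 with eGFP/Flag and at 9.28, 9.44 and 9.43 with LSD2/eGFP/Flag. The groups lay apart, with a rise of 1.09 ± 0.14 or 2.13-fold (adjusted p = 1.08e-05). Both mitophagy receptors fell with the vector. BNIP3 fell by 0.64 ± 0.17 (adjusted p = 0.00532) and BNIP3L fell by 0.69 ± 0.25 (adjusted p = 0.0305). The BNIP3L call was lost without eGFP/Flag replicate 1 (0.0687) or 3 (0.125), or without replicate 2 of LSD2/eGFP/Flag (0.12), and with array weights (-0.59, 0.0559), within a range of 0.00486 to 0.125. NDRG1, a stress-induced gene, fell by 0.97 ± 0.21 (adjusted p = 0.00117), and PLIN2, which coats lipid droplets, fell by 0.72 ± 0.10 (adjusted p = 2.37e-05). CA12, a membrane carbonic anhydrase, fell by 1.31 ± 0.12 (adjusted p = 5.09e-07). With the shRNA CA12 was at 8.92, 9.08 and 8.93 and then at 8.51, 8.72 and 8.60, which did not overlap, and -0.37 ± 0.12 missed the threshold (adjusted p = 0.074). It passed in 5 of 22 alternatives, including the shRNA arrays alone (0.028) and the omission of LSD2/eGFP/Flag replicate 2 (0.0276), within 0.0121 to 0.24. TFRC, the transferrin receptor, did not pass (0.11 ± 0.10 and -0.16 ± 0.10). The vector call was gained without eGFP/Flag replicate 3 (-0.29, adjusted p = 0.00566, range 0.00566 to 0.692). It was also gained under equal medians and with the mean of the TFRC probe sets. The other TFRC probe set, 207332_s_at, passed as lower with the vector (-0.40 ± 0.12, adjusted p = 0.0104).

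**Figure D3:**
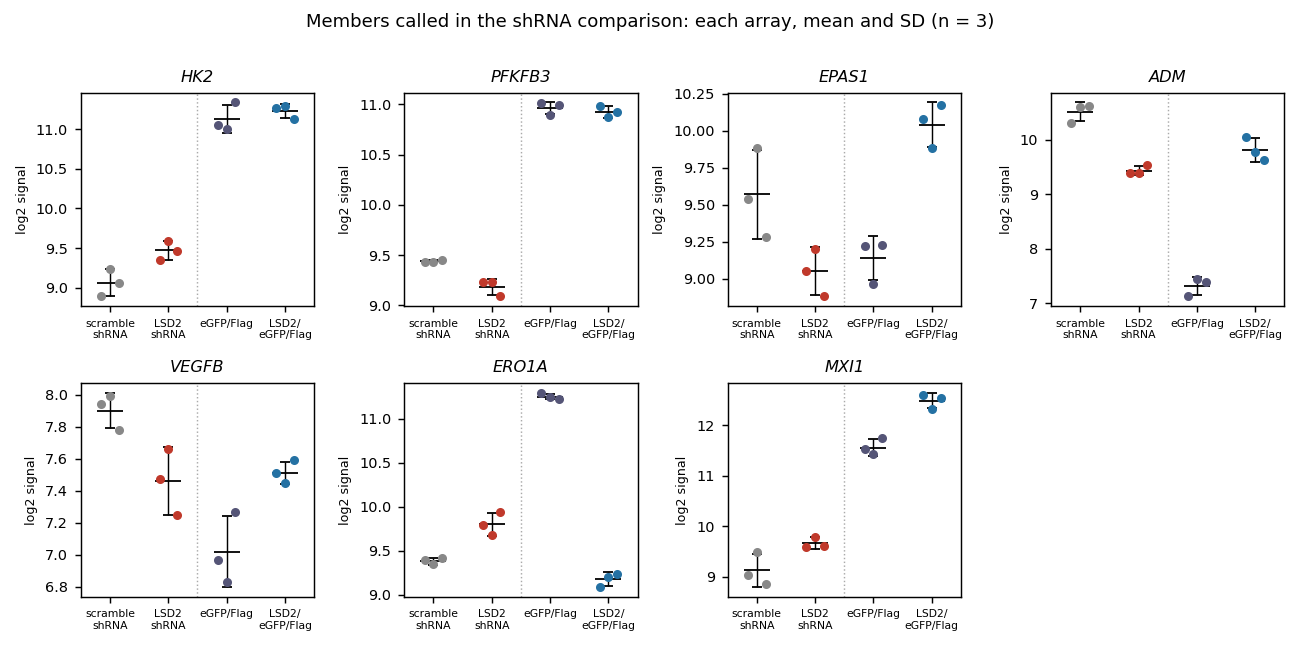
Log2 signal of the 7 members called in the shRNA comparison, HK2, PFKFB3, EPAS1, ADM, VEGFB, ERO1A and MXI1. Each point is an array, bars are mean and SD (n = 3), and the dotted line separates shRNA from vector arrays. ADM falls by 1.08 from scramble to LSD2 shRNA and rises by 2.49 from eGFP/Flag to LSD2/eGFP/Flag, while ERO1A rises by 0.42 and falls by 2.07.

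Calls in the shRNA comparison leaned to one side on several chromosomes, those with called members among them. Chromosome 11, with ADM and VEGFB, had 17 genes higher and 107 lower of 732. Chromosome 2, with EPAS1, had 24 higher and 91 lower of 755, and HK2 on the same chromosome rose. Chromosome 14, with ERO1A, had 33 higher and 8 lower of 381. Chromosome 10, with MXI1, had 65 higher and 10 lower of 451, and PFKFB3 on it fell. Chromosomes whose members were not called leaned as well. Chromosome 3 had 96 higher and 7 lower of 655, chromosome 12 had 61 and 6 of 674, and chromosome 17 had 12 and 115 of 700. The part of these chromosome leans in the members' differences was not tested.

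The wider pathway was read from a list of 114 genes outside the members, of which 104 were measured. With the shRNA 3 rose and 9 fell (11.5% called, against the 10.5% of all genes), and with the vector 41 rose and 26 fell (64.4%, against 57.0%). Under equal medians the vector split was 30 higher and 29 lower. The largest shRNA rises were those of MINPP1, a phosphatase of the 2,3-bisphosphoglycerate shunt (0.61 ± 0.10, adjusted p = 0.00142), HIF1AN, the asparagine hydroxylase of HIF (0.45 ± 0.08, adjusted p = 0.00332), and RPIA, a pentose phosphate isomerase (0.38 ± 0.07, adjusted p = 0.00544). The largest falls were those of PPP1R3D, which targets a phosphatase to glycogen (-0.62 ± 0.17, adjusted p = 0.0391), PC, the pyruvate carboxylase (-0.54 ± 0.16, adjusted p = 0.0454), and P4HA2, a collagen prolyl hydroxylase (-0.52 ± 0.10, adjusted p = 0.00551). With the vector 4 of these 6 genes went the other way: HIF1AN and MINPP1 fell (-0.84 ± 0.08 and -0.66 ± 0.10), and PPP1R3D and PC rose (1.91 ± 0.17 and 0.43 ± 0.16). RPIA rose in both comparisons (0.24 ± 0.07 with the vector) and P4HA2 fell in both (-0.74 ± 0.10). The vector calls of PC and RPIA were lost under equal medians (0.30, adjusted p = 0.0771, and 0.10, adjusted p = 0.342), and that of PC also with quantile normalization (0.28, 0.143) or cyclic loess (0.30, 0.106). They were also lost without eGFP/Flag replicate 1 (0.0748 for PC and 0.0529 for RPIA), and that of PC when replicate 2 of eGFP/Flag (0.106) or replicate 1 (0.121) or 3 (0.0839) of LSD2/eGFP/Flag was omitted. The shRNA calls of PPP1R3D and PC were lost with the shRNA arrays alone (0.101 and 0.0922), that of PC also with cyclic loess (-0.49, 0.0569), and both when any of several arrays was left out (adjusted p 0.0106 to 0.161 and 0.0127 to 0.182 over the alternatives). For PPP1R3D these were scramble replicates 1 (0.111) and 2 (0.161), LSD2 shRNA replicates 1 (0.134) and 3 (0.147) and LSD2/eGFP/Flag replicates 1 (0.0543) and 3 (0.0535). For PC they were scramble replicates 1 (0.118) and 2 (0.182), LSD2 shRNA replicates 1 (0.126) and 3 (0.171), eGFP/Flag replicate 1 (0.0608) and LSD2/eGFP/Flag replicates 1 (0.0518) and 3 (0.0606).

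With the vector the largest pathway rises were those of GYG2, a glycogenin that primes glycogen (3.40 ± 0.15, adjusted p = 3.47e-10), PPP1R3D (1.91 ± 0.17, adjusted p = 4.58e-07) and MYC (1.91 ± 0.21, adjusted p = 2.59e-06). The largest falls were those of IGFBP3, a carrier of insulin-like growth factors (-3.89 ± 0.23, adjusted p = 4.56e-09), PPP1R3C, another glycogen targeting subunit (-3.00 ± 0.13, adjusted p = 3.16e-10), and LOXL2, which cross-links collagen (-2.62 ± 0.19, adjusted p = 5.42e-08). With the mean of all probe sets GYG2 gave 2.12, PPP1R3D 1.08, IGFBP3 -2.82 and LOXL2 -0.97, each still called, so the order of these genes depends on the probe sets. All 4 measured transport genes were called. The glucose carriers SLC2A1 and SLC2A3 fell (-1.95 ± 0.07 and -1.59 ± 0.15). SLC16A4 and BSG, a transporter of the lactate carrier family and a chaperone of lactate carriers, rose by 0.52 ± 0.10 and 0.29 ± 0.08. SLC16A4 was dim, with means of 4.24 with eGFP/Flag and 4.76 with LSD2/eGFP/Flag, where the array medians were 7.03 to 7.18. Of 11 genes around pyruvate dehydrogenase 6 rose and 1 fell, with MPC1, a subunit of the mitochondrial pyruvate carrier, at 1.57 ± 0.10 (adjusted p = 1.28e-08). Of 14 other glycogen genes 6 rose and 5 fell, of 19 other glycolysis and gluconeogenesis genes 5 and 4, of 6 pentose phosphate genes 2 and 1, of 14 other HIF regulators 6 and 3, and of 36 other hypoxia targets 14 and 10. With the shRNA these lists had 0 and 2, 1 and 2, 1 and 1, 1 and 1, and 0 and 1 genes called higher and lower, none of the transport genes, and 0 and 2 around pyruvate dehydrogenase. P4HA2 was the hypoxia target called. Over all genes 57.0% were called with the vector (30.9% higher and 26.1% lower) and 10.5% with the shRNA (5.0% higher and 5.53% lower).

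Several members were measured by more than 1 probe set, and these did not always move alike. Of the called differences of 20 such members, those of HK2 with the shRNA and of EPAS1 and PLIN2 with the vector had a dimmer probe set on the other side of zero. For HK2, probe set 222305_at gave -0.04 ± 0.09 in the shRNA comparison where the probe set used gave 0.40, and 0.96 ± 0.09 in the vector comparison where it gave 0.10. EPAS1 read by 200879_s_at gave -0.20 ± 0.13 and -0.13 ± 0.13, so neither EPAS1 call held on it. For PLIN2, 215895_x_at gave 0.21 with the vector against -0.72. The PDK3 rise of 0.85 was 0.29 and 0.04. For STC1 the other probe sets gave -2.77 and -0.39, and for STC2 the other rose by 4.28. CA12 had 6 probe sets, and 3 of the 5 not used passed in the shRNA comparison, with -0.65 ± 0.10 (adjusted p = 0.00129), -0.41 ± 0.10 (adjusted p = 0.0246) and -0.41 ± 0.12 (adjusted p = 0.0454). ADM, VEGFB, ERO1A and MXI1 each had a single probe set, so their values have no such check. The probe sets used for PFKL, ALDOA, GAPDH, LDHB, EGLN1 and CA12 carry the suffix _x_at, which marks probes that can also bind related sequences, so their values may include related transcripts.

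**Figure D4:**
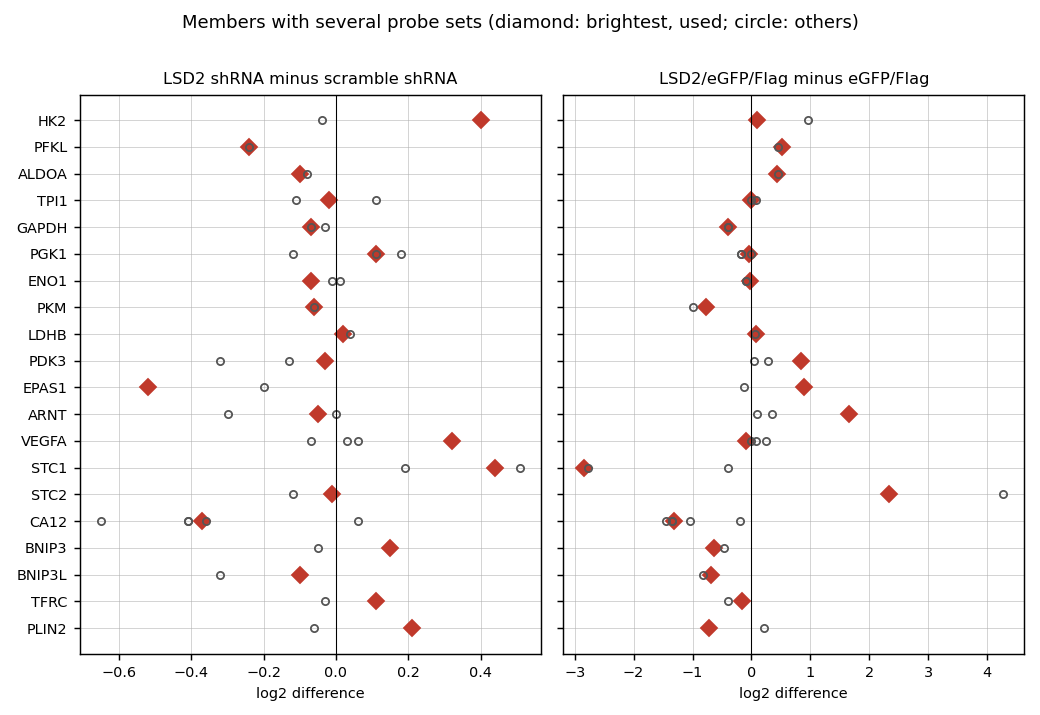
Log2 differences of every probe set of the 20 members with several, for the shRNA and the vector comparison. Diamonds are the probe sets used, which have the highest mean over all arrays, and circles are the others. STC1, STC2, ARNT and CA12 spread widely in the vector comparison, while the probe sets of GAPDH lie between -0.40 and -0.39.

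Replicates of the same group differed more for some members than for most genes, and they did so together. The median within-group SD was 0.14 for the members and 0.11 for all genes, 30 of 47 members lay above the median of all genes, and 12 of 47 lay among its widest 10%. The 10 members of widest spread, picked after their values were seen and described without a test, were ALDOC (0.64), STC1 (0.47), BNIP3L (0.38), ENO2 (0.35), NDRG1 (0.31), PDK1 (0.31), PGM1 (0.27), BNIP3 (0.25), EGLN3 (0.21) and PFKL (0.21). In scramble replicate 2 and in LSD2 shRNA replicate 2 all 10 lay above their group mean, with median deviations of 0.37 and 0.29. In replicate 3 of both groups none did, with medians of -0.35 and -0.34. Among the vector arrays, none of the 10 lay above the mean in eGFP/Flag replicate 2 (median -0.32) and 9 did in eGFP/Flag replicate 3 (median 0.30). The LSD2/eGFP/Flag arrays deviated less, with medians of 0.12, -0.17 and 0.03. Over all 47 members, 40 lay above the mean in scramble replicate 2 and 10 in replicate 3, while the median deviation of all genes was within 0.01 of 0 in every array.

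The widest of them shows the pattern. ALDOC was at 8.48, 9.28 and 7.87 with scramble and at 8.16, 8.94 and 7.43 with the LSD2 shRNA, so replicate 2 was the highest and replicate 3 the lowest in both groups. With the vectors it was at 8.77, 7.97 and 9.21 and then at 8.71, 8.02 and 8.68, with replicate 2 the lowest in both groups. PDK1 had the same highest and lowest replicates in the shRNA arrays, with 7.11, 7.77 and 6.98 and then 6.92, 7.11 and 6.48. For ALDOC the range of the replicates exceeded the difference between the groups in both comparisons. What the arrays with high values share was not tested.

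**Figure D5:**
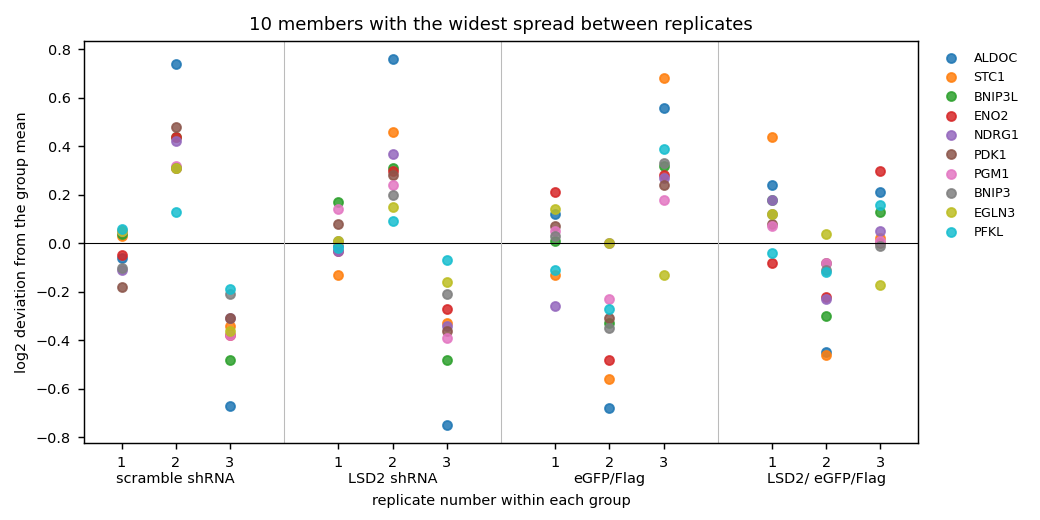
Deviation of each array from its group mean, in log2 units, for the 10 members with the widest spread between replicates, by group and replicate. Each colour is a gene. All 10 points lie above 0 in replicate 2 of the scramble and LSD2 shRNA groups and below 0 in replicate 3 of both, while in eGFP/Flag replicate 2 none lies above 0.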

How the data were processed

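Total RNA was hybridised to Affymetrix arrays, and the deposited values are log2 signals of 22277 probe sets on 12 arrays. The authors used RMA (background correction, quantile normalization and probe summary), per the submitters' processing notes. Its software and version were not given in the sources used here. Gene names come from the annotation of the platform, possibly outdated, matched to RefSeq gene names (GRCh38.p14), 19052 of 19064 single-gene probe sets matching. Control probe sets (62), those of several genes (1043) and those with no listed gene (2108) were left out.

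Differences were fitted across all genes with limma 3.58.1 in R 4.3.3 (lmFit on group means with all 12 arrays, eBayes, 8 residual and 4.82 prior degrees of freedom), two-sided, Benjamini-Hochberg over 11963 genes, called at an adjusted p under 0.05. Errors after ± are standard errors of the fit for differences and SD for means. The members, their roles, the pathway list, the motif and the marker lists were chosen with earlier results of these data known. Every member is named. The arrays' values are given for members called with the shRNA, for the 6 largest rises and 6 largest falls with the vector and for the oxygen sensing genes, and from the pathway list the 3 largest called rises and falls are named; other genes were picked after their values were seen. The alternatives were 3 other scalings, omission of the dimmest genes, the mean of probe sets, other single probe sets, the compared groups alone, a replicate block, an intensity trend, array weights, a threshold of 0.01 and leaving out each array. The fit was tested on simulated data. RMA values carry no detection calls.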

Additional observations from a re-analysis of the deposited data

How the results depend on the processing

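The 31 members called in the vector comparison became 28 to 34 over all alternatives and the 27 of the difference of effects 26 to 32, and no count of calls in either moved by over 1.5 times. Counts of the shRNA comparison moved more. From 1260 genes, 7 members and 12 pathway genes, array weights gave 2350, 11 and 21, and a threshold of 0.01 gave 564, 2 and 5. Leaving out 1 array gave 752 to 1347 genes, 2 to 9 members and 5 to 13 pathway genes. Fewest members, 2, were called without scramble replicate 1, then 3 without LSD2 shRNA replicate 3 and 4 without replicate 2 or 3 of scramble or replicate 1 of the LSD2 shRNA. The shRNA arrays alone also gave 7 members, with EPAS1 and MXI1 lost and PFKP and CA12 gained. With the replicate number as a block 4 shRNA members were called, with EPAS1 (adjusted p = 0.0577), VEGFB (0.0644) and MXI1 (0.0659) lost, and 31 vector members. Over all genes the block gave 1071 and 6691 calls. Same-numbered arrays deviated together for numbers 2 and 3 of the shRNA groups (r = 0.508 and 0.446) but not 1 (0.02). Scramble replicate 2 with LSD2 shRNA replicate 3 gave -0.482, and scramble replicate 3 with LSD2 shRNA replicate 2 gave -0.457. Scramble replicate 1 correlated slightly better with LSD2 shRNA replicate 3 (0.072) than with its own number. Deviations sum to 0 within a group, so values near 0 for 1 array cannot decide on pairing. For the vector groups r was -0.142, 0.175 and 0.182. The numbers were not taken as pairs in the main fit, and whether same-numbered shRNA arrays belong together was not tested. Among called values, another probe set turned the sign of HK2 with the shRNA (-0.04), EPAS1 with the vector (-0.13) and PLIN2 with the vector (0.21) and in the difference of effects (0.27). The HK2 difference of effects, not called as reported, passed with the sign turned (0.99, or 0.34 with the mean of its probe sets). The cause was not tested. Equal medians moved the difference of effects of all genes by -0.17 and its calls from 55.5% to 39.8% higher.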
